A study of Mus musculus with 4 samples.

Results

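The comparison described here sets the hippocampus of Ogg1 knockout (Ogg1 KO) mice directly against that of Mutyh knockout (Mutyh KO) mice. It covers the autosomal genes that averaged at least 1 RPKM (reads per kilobase of gene length, scaled to the library total) over all libraries of the series. Of 18492 genes listed in any library, 13186 reached that level. Genes on chromosome X (451), on chromosome Y (4) or without a chromosome in the annotation table (29) were left out, and 12702 genes were compared. Ogg1 KO mice were Ogg1-/- and Mutyh KO mice were Mutyh-/-. The series also holds a double knockout (DKO), which lacks both genes, and a wild type (WT), and these were used only in the expression filter and as values set beside the pair. All mice were of the C57BL/6 strain and 6 months old. There was 1 library per genotype. The labels do not say how the alleles were made, how many animals gave each RNA sample, or of which sex they were.

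Oxidation of guanine in DNA leaves 8-oxoguanine, a base that can pair with adenine as well as with cytosine. OGG1 is the glycosylase that cuts 8-oxoguanine out when it faces cytosine, and MUTYH cuts out the adenine that was placed opposite it. The enzymes start base excision repair on opposite strands of the same lesion, so the direct contrast asks how the hippocampal transcriptome without the first differs from that without the second.

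The libraries held 17.02 M reads in genes (M, mega) in Ogg1 KO, 17.15 M in Mutyh KO, 18.2 M in the DKO and 18.12 M in WT. The pyramidal cell and granule cell markers of the hippocampus were present in each: Prox1, a marker of dentate granule cells, had 16.6 RPKM in Ogg1 KO and 20.6 in Mutyh KO, and Wfs1, a marker of CA1, had 41.2 RPKM in Ogg1 KO and 39.1 in Mutyh KO. The Mutyh KO library stood apart on the sex chromosomes. Xist, the noncoding RNA of the silenced X chromosome in females, had 23 reads in Ogg1 KO and 10307 in Mutyh KO, against 29 in the DKO and 14 in WT. The 4 genes on chromosome Y that passed the level summed to 1955 reads in Ogg1 KO and 719 in Mutyh KO, against 2193 in the DKO and 1974 in WT. Where Mutyh KO lies apart from the other 3 libraries in a value below, genotype and this feature of the library cannot be told apart. Ribosomal and other structural RNA genes took 0.352% of the reads in Ogg1 KO and 1.37% in Mutyh KO. Without replicates no difference has a test, and each statement below compares 2 libraries. A fold divides a gene's share of the Ogg1 KO reads by its share of the Mutyh KO reads, and its exact conditional 95% interval covers counting error only.

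The targeted genes were read first. Ogg1 had 130 reads in the library labelled Ogg1 KO and 81 in Mutyh KO, against 103 in the DKO and 94 in WT, so its read total was not lower in the library that carries the knockout label (fold 1.62, 95% interval 1.22 to 2.16). The share of the Ogg1 gene length that reads covered separated the libraries by their labels. It was 47.2% in Ogg1 KO and 81.5% in Mutyh KO, with 46.4% in the DKO and 86.7% in WT. The difference was -34.3 percentage points. Ogg1 itself is past 1.5-fold in reads, and of the 12233 genes with at least 20 reads in both libraries and read totals within 1.5-fold, 0 had a lower difference, and the central 95% lay between -10.2 and 7.84 points. Among the 12526 genes with at least 20 reads in both at any read ratio, Myh6, Tnnt2 and Cpxm2 had a lower one, and each of these 3 had fewer reads in Ogg1 KO. Mutyh had 35 reads in Ogg1 KO and 15 in Mutyh KO, 20 in the DKO and 39 in WT, and covered shares of 57.1% in Ogg1 KO, 18.4% in Mutyh KO, 27.7% in the DKO and 55.9% in WT. Its fold was 2.35 (1.25 to 4.63), and at these levels it stayed under the 1 RPKM minimum.

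**Figure D1:**
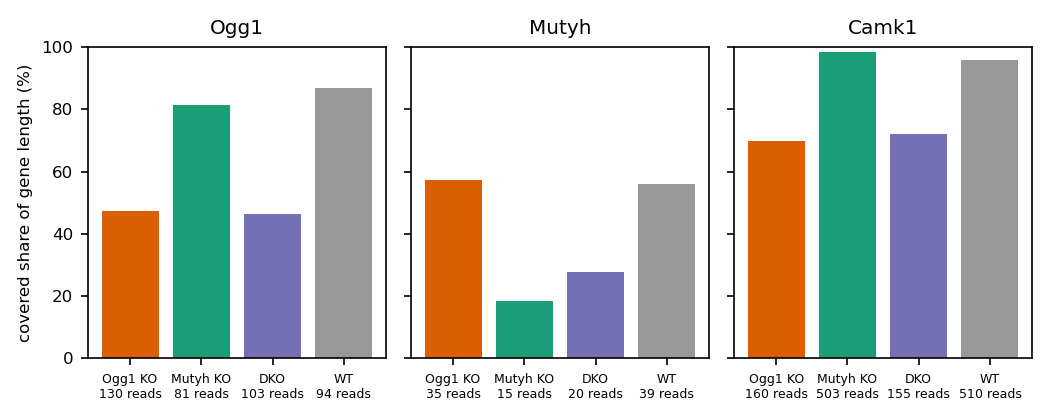
Share of gene length covered by reads (percent) for Ogg1, Mutyh and Camk1 in the Ogg1 KO, Mutyh KO, DKO and WT libraries, 1 bar per library, with the reads of each gene under its bar. Ogg1 and Camk1 bars are lower in Ogg1 KO and the DKO, and the Mutyh bars are lower in Mutyh KO and the DKO.

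Camk1, which encodes a calcium and calmodulin dependent protein kinase, follows Ogg1 in gene order on chromosome 6. It had 160 reads in Ogg1 KO and 503 in Mutyh KO, with 155 in the DKO and 510 in WT. The libraries without Ogg1 therefore held the low values and the libraries with Ogg1 the high ones. The fold was 0.320 (0.266 to 0.384). Its covered share was lower as well, at 69.8% in Ogg1 KO and 98.5% in Mutyh KO. The 300 bases around its start, 250 before and 50 after, are shown because this was the neighbour of a targeted gene with the difference, and they lie at chr6:113343873-113344172 on the minus strand of GRCm38.p6 in RefSeq.
Camk1: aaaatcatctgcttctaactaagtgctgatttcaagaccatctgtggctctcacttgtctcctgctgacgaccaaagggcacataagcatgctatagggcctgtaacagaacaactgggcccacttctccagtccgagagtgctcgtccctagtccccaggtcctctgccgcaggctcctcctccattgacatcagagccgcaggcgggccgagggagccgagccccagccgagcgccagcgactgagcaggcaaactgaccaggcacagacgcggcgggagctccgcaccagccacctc
This window holds 15 CG dinucleotides, against a median of 7 over 32851 promoter windows, and none of the letters searched for further on.

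Across the 12702 genes the libraries lay close together. The median log2 ratio of (RPKM + 1), Ogg1 KO over Mutyh KO, was -0.0029, and the central 90% of genes lay between -0.32 and 0.27. On that scale 7 genes (0.0551%) were at least 2-fold higher in Ogg1 KO and 40 (0.315%) at least 2-fold lower, 47 (0.370%) in all. These counts are in part set by the level required. Among the higher genes, Apoa4, Fabp2 and Gm1821 passed it only through Ogg1 KO. Among the lower genes, Pmch, Hcrt and some small noncoding RNAs passed it only through Mutyh KO. At 1.5-fold, 38 genes (0.299%) were higher and 127 (1.0%) lower, together 1.30%, and 98.7% of genes stayed within 1.5-fold either way. A ratio above 0 was found for 49.3% of genes and one below 0 for 50.7%. The pseudocount of 1 RPKM narrows the differences of weakly expressed genes. For 37 of the 47 genes past 2-fold the counting interval excluded a fold of 1, as it did for 31.5% of all genes. Of the 40 lower genes, 12 were small noncoding RNAs, and of the 7 higher, 1 was. The share of such RNAs among all compared genes is not given here, so no excess is read from these counts. Several had few reads and an interval that includes 1, such as Mir199b with 0 reads in Ogg1 KO and 3 in Mutyh KO. Gm14391, among the 7, had 225 reads in Ogg1 KO and 228 in Mutyh KO, and its RPKM differed because the deposited gene length differed between the files.

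**Figure D2:**
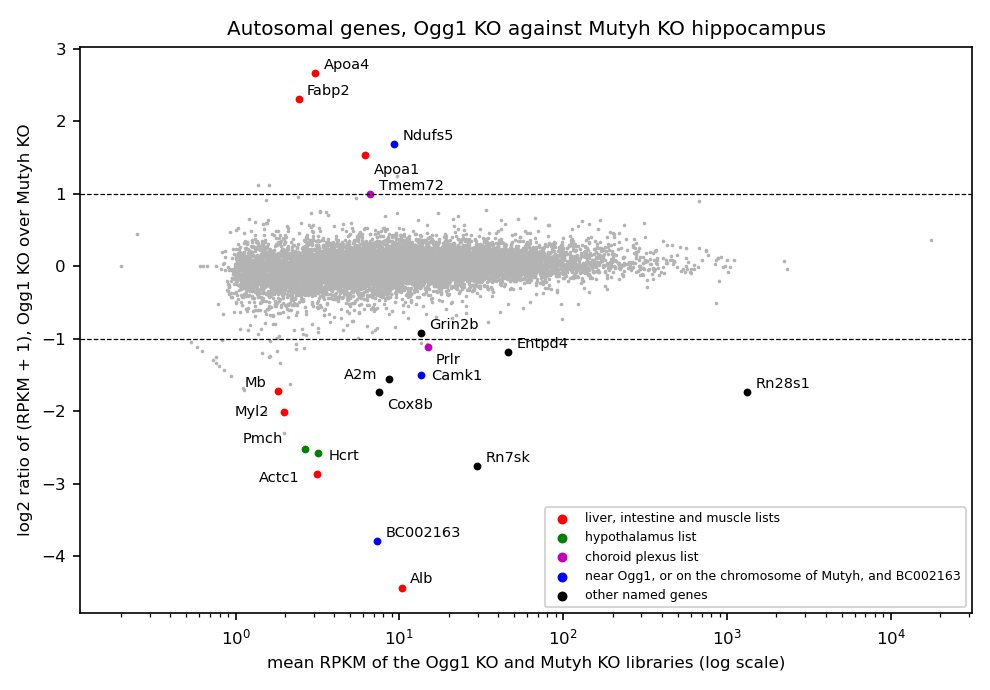
Log2 ratio of (RPKM + 1), Ogg1 KO over Mutyh KO, against the mean RPKM of both libraries on a log scale, 1 point per compared gene, with dashed lines at 2-fold and means under 0.2 drawn at 0.2. Most points lie between -0.32 and 0.27, and the coloured points are named genes, with Apoa4 highest and Alb lowest.

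Transcripts known from liver and muscle were among the genes lowest in Ogg1 KO. Albumin, the main plasma protein made by liver, had 0 reads in Ogg1 KO and 723 in Mutyh KO, with 761 in the DKO and 752 in WT. Against a floor of 3 reads per library, Alb was at least 239-fold lower in Ogg1 KO. Of 27 liver genes listed in the files 14 passed the level, and 12 of these belong to none of the lists of cell types or pathways. These 12 summed to 22.6 RPM (reads per M library reads) in Ogg1 KO and 75.2 in Mutyh KO, with 78.1 in the DKO and 77.4 in WT. Their median log2 ratio was -1.28, 10 were lower, 9 of them past 2-fold, and 7 had 0 reads in Ogg1 KO and reads in each other library. The 7 were Alb, the major urinary protein gene Mup20, the protease inhibitor genes Serpina1b, Serpina1e and Serpina3k, the fetuin gene Ahsg and the vitamin D binding protein gene Gc, of which the last 6 had 0 reads in Ogg1 KO and 35 to 48 in Mutyh KO. The median of all 14 liver genes was -1.25, and -3.55 on read shares alone with genes at 0 taken at the floor, but -0.03 among those with a mean of at least 5 RPKM. Of the 7 genes named above, Alb alone has such a mean. Mup and Serpina genes have near-identical copies, so the split of reads among them is uncertain.

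The 11 heart and skeletal muscle genes that passed were all lower in Ogg1 KO, and their median log2 ratio was -0.88. Their sum was 45.2 RPM in Ogg1 KO and 83.5 in Mutyh KO, with 79.8 in the DKO and 75.9 in WT. Actc1, cardiac actin, had 0 reads in Ogg1 KO and 150 in Mutyh KO, with 144 in the DKO and 128 in WT, at least 49.6-fold lower against the floor. Myl2, a ventricular myosin light chain, had 2 reads in Ogg1 KO and 41 in Mutyh KO (fold 0.0491, 0.00576 to 0.189). Myoglobin (Mb) had 6 reads in Ogg1 KO and 64 in Mutyh KO, and the myosin heavy chain Myh6 had 55 reads in Ogg1 KO and 278 in Mutyh KO. The median was -1.65 on read shares with genes at 0 at the floor, and -0.09 among those with a mean of at least 5 RPKM. Actc1, Myl2, Mb and Myh6 average under 5 RPKM and are not among the latter. Actn2, an actinin also made in neurons, differed less, with 365 reads in Ogg1 KO and 394 in Mutyh KO. The part that such transcripts play in the other differences was not tested.

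The start regions of 2 genes from these groups and of the 2 hypothalamic peptide genes described next are shown because their transcripts were at or near 0 in Ogg1 KO and present in Mutyh KO. Each is 300 bases from RefSeq on GRCm38.p6, and capitals mark a match to GTTAAT, letters that the liver factor HNF1 is known to bind, to the CArG box of muscle genes, or to the TATA box TATAAA, all searched on both strands. GTTAAT was found in 7.1% of all promoter windows, a CArG box in 1.63% and TATAAA in 13.6%, and a CArG box can contain TATAAA. The match in Alb starts at -32 from the start site, in Actc1 the CArG box starts at -47 and TATAAA at 34, apart from each other, in Pmch TATAAA starts at -27 and in Hcrt at -33. The windows lie at chr5:90460620-90460919 (plus strand), chr2:114052826-114053125 (minus), chr10:88090822-88091121 (plus) and chr11:100762882-100763181 (minus).
Alb: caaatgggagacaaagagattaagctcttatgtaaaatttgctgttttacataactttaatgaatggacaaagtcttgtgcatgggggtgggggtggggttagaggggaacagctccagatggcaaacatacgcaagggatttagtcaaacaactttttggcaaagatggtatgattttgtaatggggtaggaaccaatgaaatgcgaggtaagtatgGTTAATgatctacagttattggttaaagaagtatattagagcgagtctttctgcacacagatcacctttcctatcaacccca
Actc1: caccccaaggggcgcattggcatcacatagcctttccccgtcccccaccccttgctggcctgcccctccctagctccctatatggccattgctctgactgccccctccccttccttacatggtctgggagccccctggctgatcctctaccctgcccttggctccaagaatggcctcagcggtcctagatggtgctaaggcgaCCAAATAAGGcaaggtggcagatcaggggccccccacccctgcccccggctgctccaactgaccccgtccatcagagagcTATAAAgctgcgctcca
Pmch: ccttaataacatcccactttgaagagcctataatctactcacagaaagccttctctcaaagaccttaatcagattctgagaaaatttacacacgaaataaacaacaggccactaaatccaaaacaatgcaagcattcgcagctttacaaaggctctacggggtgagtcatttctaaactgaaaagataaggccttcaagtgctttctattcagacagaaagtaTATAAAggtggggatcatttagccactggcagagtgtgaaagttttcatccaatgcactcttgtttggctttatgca
Hcrt: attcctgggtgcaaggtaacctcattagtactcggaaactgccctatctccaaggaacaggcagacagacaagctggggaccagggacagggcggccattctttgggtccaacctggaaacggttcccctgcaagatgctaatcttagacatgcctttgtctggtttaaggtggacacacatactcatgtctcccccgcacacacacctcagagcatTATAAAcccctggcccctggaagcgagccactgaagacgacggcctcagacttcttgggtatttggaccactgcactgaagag

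Intestinal transcripts ran the other way. Apoa4, an apolipoprotein made by enterocytes, had 171 reads in Ogg1 KO and 3 in Mutyh KO, with 0 in the DKO and 1 in WT, a fold of 57.4 (19.3 to 281). Fabp2, the intestinal fatty acid binding protein, had 62 reads in Ogg1 KO and 2 in Mutyh KO (31.2, 8.29 to 264). Apoa1, which liver and intestine both make, had 165 reads in Ogg1 KO and 46 in Mutyh KO (3.61, 2.59 to 5.12). Of 18 intestinal genes listed 5 passed the level. Apoa4 and Fabp2 did so only through their reads in Ogg1 KO, so the list's median of 1.54 is in part set by the level required. Apoa4, Fabp2 and Apoa1 average under 5 RPKM. With a mean of at least 5 RPKM required, the value was 0.07, which is the lowest ratio of the list. The 4 that belong to none of the lists of cell types or pathways summed to 28.0 RPM in Ogg1 KO and 6.53 in Mutyh KO, with 5.77 in the DKO and 5.96 in WT. Of the 4 libraries, Ogg1 KO held the high sum. Apoa4 and Fabp2 are among these genes, so the sum too is in part set by the level required. Apoa1 is counted both in this sum and in that of the liver genes above, where it had the highest ratio.

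A second group was highest in Mutyh KO. Pmch, the precursor of melanin-concentrating hormone in the lateral hypothalamus, had 1 read in Ogg1 KO and 67 in Mutyh KO, with 1 in the DKO and 2 in WT (fold 0.0150, 0.000375 to 0.0867). Hcrt, the hypocretin precursor, had 2 reads in Ogg1 KO and 62 in Mutyh KO, with 3 in the DKO and 16 in WT. Of 20 hypothalamus genes listed 13 did not pass, 1 is sex-linked and 6 were compared, and Pmch and Hcrt passed only through their reads in Mutyh KO. Hdc, the histidine decarboxylase that makes histamine, had 35 reads in Ogg1 KO and 75 in Mutyh KO. With 67 reads in the DKO and 59 in WT, both of these lay nearer Mutyh KO for Hdc. Lhx9 (403 reads in Ogg1 KO and 364 in Mutyh KO) and Sst (3067 reads in Ogg1 KO and 2906 in Mutyh KO) were higher in Ogg1 KO. The list's median of -0.33 is in part set by the level required, and it was 0.0878 when a mean of at least 5 RPKM was required, so no direction is given for the list. A2m, a protease inhibitor, had 314 reads in Ogg1 KO and 1081 in Mutyh KO, with 344 in the DKO and 149 in WT (0.293, 0.257 to 0.332). Cox8b, a subunit of cytochrome c oxidase best known from heart and muscle, had 19 reads in Ogg1 KO and 79 in Mutyh KO, with 14 in the DKO and 9 in WT. Entpd4, a nucleotide hydrolase of the secretory pathway, had 1458 reads in Ogg1 KO and 3419 in Mutyh KO, with 1445 in the DKO and 1451 in WT (0.429, 0.404 to 0.457). Mice carry a near-identical copy of Entpd4, so its value is uncertain.

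Choroid plexus transcripts were about equal in sum and differed in single genes. The 22 genes that passed summed to 5350 RPM in Ogg1 KO and 5537 in Mutyh KO, with 2820 in the DKO and 667 in WT, and Ttr, the transthyretin of choroid plexus epithelium, had 47882 reads in Ogg1 KO and 45999 in Mutyh KO. Within this list Prlr, the prolactin receptor, had 1590 reads in Ogg1 KO and 3677 in Mutyh KO (0.436, 0.410 to 0.462), with 844 in the DKO and 279 in WT. Tmem72, a membrane protein, had 522 reads in Ogg1 KO and 235 in Mutyh KO (2.24, 1.91 to 2.62), with 258 in the DKO and 14 in WT. Its log2 ratio of 0.997 lay just under the 2-fold limit. Col8a1, a collagen, had 368 reads in Ogg1 KO and 629 in Mutyh KO, and 16 of the 22 genes had a negative ratio, with a median of -0.16. In bulk RNA, fewer cells of a type and less RNA per cell cannot be told apart. Meningeal and fibroblast genes were lower in 19 of 20, with a median of -0.27, and ependymal and motile cilium genes in 14 of 16, with a median of -0.29. Igf2 had 5430 reads in Ogg1 KO and 7914 in Mutyh KO, and Ccdc153 had 82 reads in Ogg1 KO and 171 in Mutyh KO. All 6 red blood cell genes that passed had a negative ratio, with a median of -0.65. The beta-globin gene listed as Beta-s had 803 reads in Ogg1 KO and 1348 in Mutyh KO, with 616 in the DKO and 408 in WT, and Hba-a1 had 191 reads in Ogg1 KO and 307 in Mutyh KO. Globin genes have near-identical copies, so their single values are uncertain.

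**Figure D3:**
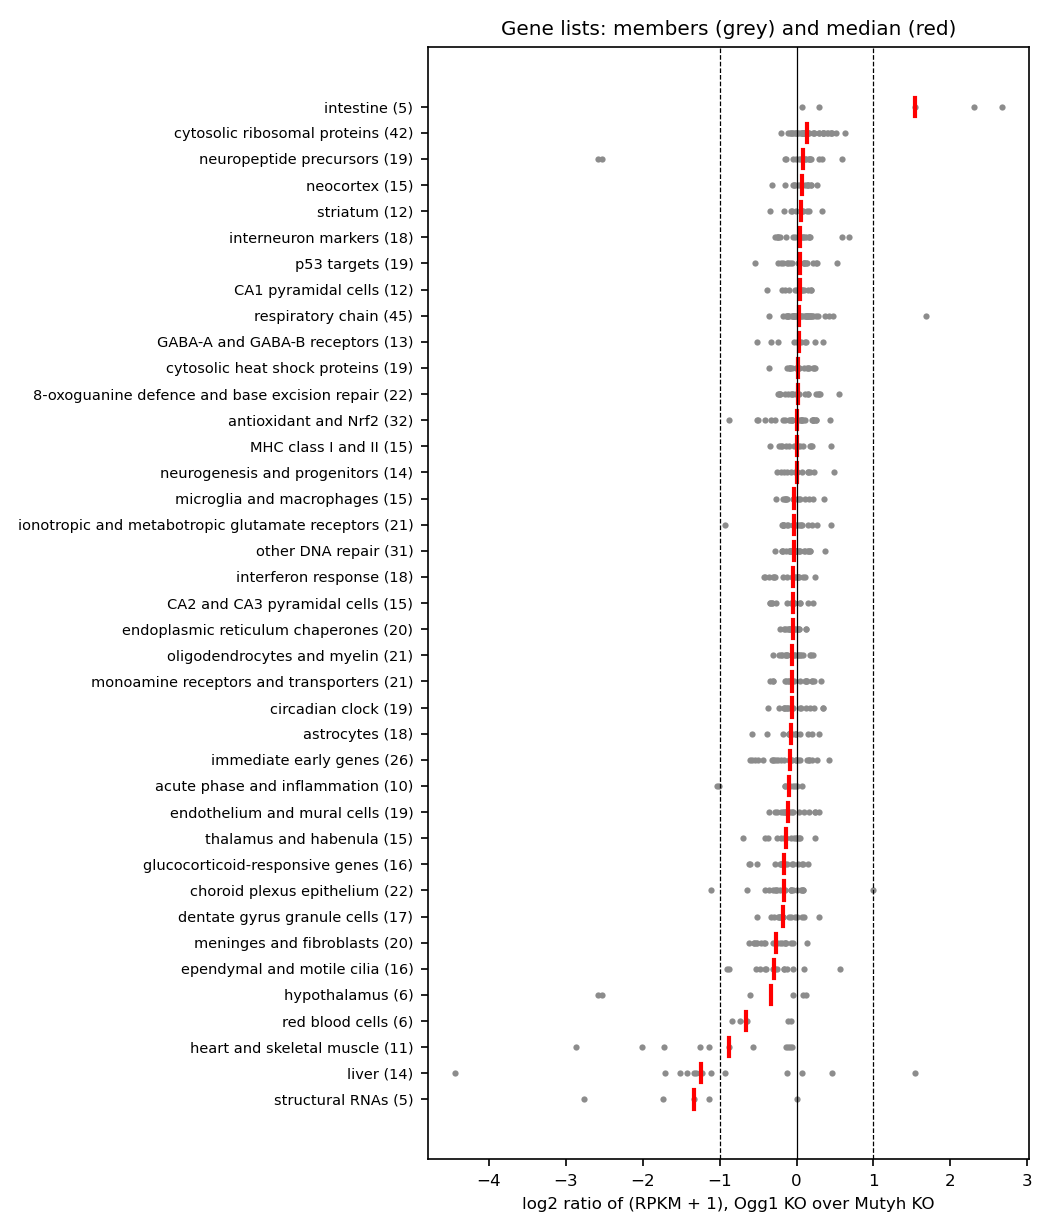
Log2 ratio of (RPKM + 1), Ogg1 KO over Mutyh KO, for the members of the gene lists with at least 5 compared members (grey, 1 point per gene), with the median of each list in red, its size in parentheses and dashed lines at 2-fold. Intestine stands at 1.54 and liver, muscle and structural RNAs at -1.25, -0.88 and -1.34, while most other medians lie close to 0.

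Some genes took 1 level in the libraries that share a genotype at Ogg1 or at Mutyh. Ndufs5, an accessory subunit of respiratory complex I, lies on chromosome 4, as Mutyh does. It had 135 reads in Ogg1 KO and 36 in Mutyh KO, with 36 in the DKO and 151 in WT (3.78, 2.60 to 5.62). BC002163, on chromosome 16, had 1 read in Ogg1 KO and 124 in Mutyh KO, with 149 in the DKO and 1 in WT. The reads of both together were 136 in Ogg1 KO and 160 in Mutyh KO, with 185 in the DKO and 152 in WT, a fold of 0.856 (0.676 to 1.08). Reads of near-identical copies can be shared between such entries, and their single values are uncertain. Foxo6, a forkhead transcription factor expressed in hippocampus, had 689 reads in Ogg1 KO and 432 in Mutyh KO, with 402 in the DKO and 662 in WT (1.61, 1.42 to 1.82).

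**Figure D4:**
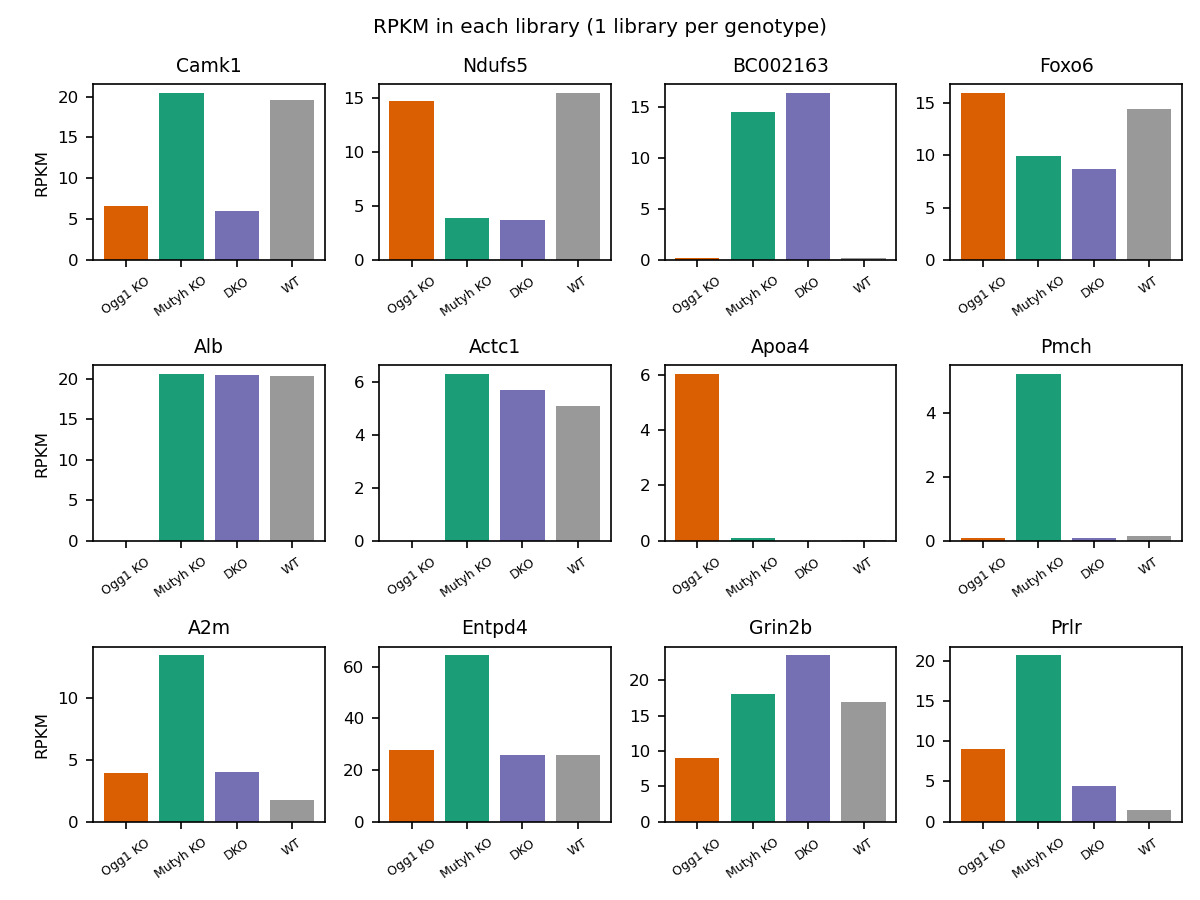
RPKM of 12 genes in the Ogg1 KO, Mutyh KO, DKO and WT libraries, 1 bar per library. Camk1 is low in the libraries without Ogg1, Ndufs5 and Foxo6 are low and BC002163 high in those without Mutyh, Alb and Actc1 are 0 in Ogg1 KO, Apoa4 is high in Ogg1 KO, and Pmch, A2m and Entpd4 are high in Mutyh KO.

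Among the 47 genes past 2-fold, WT and the DKO both lay nearer Mutyh KO in 27 (57.4%) and both nearer Ogg1 KO in 9 (19.1%). In 4 genes WT lay nearer Mutyh KO and the DKO nearer Ogg1 KO, the order of the Ogg1 genotype, and in 7 WT lay nearer Ogg1 KO and the DKO nearer Mutyh KO, the order of the Mutyh genotype. Over all 12702 genes these classes took 35.7%, 26.3%, 15.2% and 22.8%. At 1.5-fold, 16 of 165 genes (9.7%) followed the Ogg1 order and 30 (18.2%) the Mutyh order, both under the shares over all genes. Of the 16, 4 lay on chromosome 6, which holds 5.09% of compared genes. Camk1, Efcab12, BC064078 and Magohb lay 1, 39, 209 and 231 places from Ogg1 in the order of listed genes. The place of Magohb rests on 38 reads in WT and 33 in the DKO. Of the 30, 4 lay on chromosome 4, which holds 6.45%. Foxo6, Ndufs5, Gm13152 and Cort lay 64, 94, 434 and 468 places from Mutyh. These chromosomes were looked at after the values were seen.

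Of the 30 listed genes nearest Ogg1, 15 on each side, 25 passed the level and Camk1 alone was past 1.5-fold. Of the 30 nearest Mutyh 23 passed, none of which was past 1.5-fold, and neither Ndufs5 nor Foxo6 is among them. Over all compared genes 1.30% were past 1.5-fold, so groups of this size are too small to show whether the neighbours of Mutyh differ from that share. The median size of the log2 ratio was 0.09 next to Ogg1, 0.16 next to Mutyh and 0.10 over all genes.

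**Figure D5:**
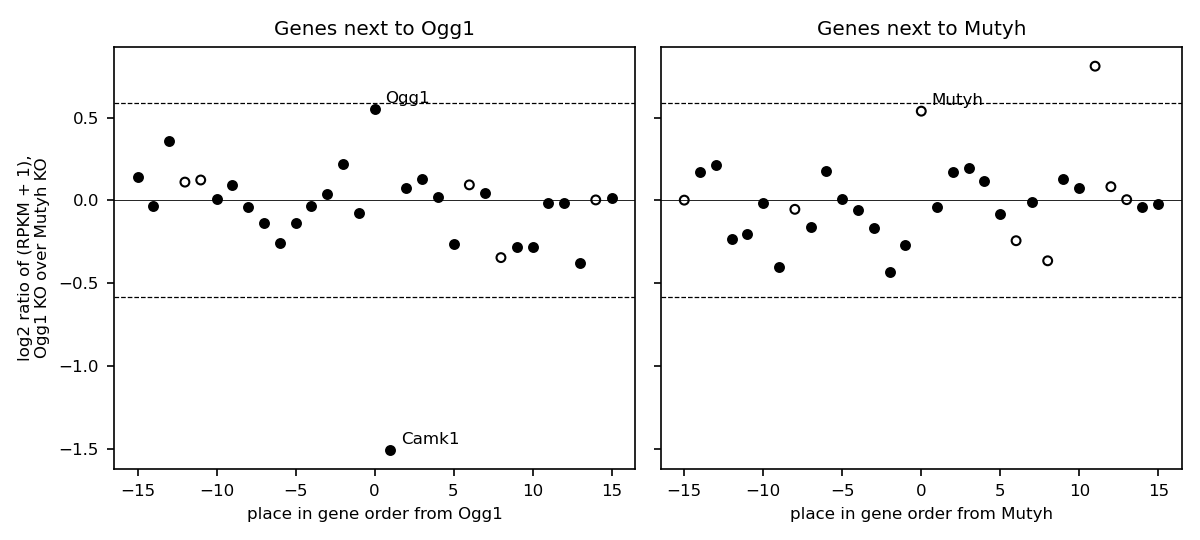
Log2 ratio of (RPKM + 1), Ogg1 KO over Mutyh KO, of the 15 listed genes on each side of Ogg1 (left) and Mutyh (right), by place in gene order, with filled points for genes that average at least 1 RPKM, open points for the others and dashed lines at 1.5-fold. Camk1, the first gene after Ogg1, is the only filled point past a dashed line.

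No gene of the DNA repair lists was past 1.5-fold on the log2 scale of (RPKM + 1), where 98.7% of all genes lay within it, and Ogg1 itself, with the read values above, had the largest ratio among them (0.55). Of 27 genes of 8-oxoguanine defence and base excision repair 22 passed the level, 12 with a positive and 10 with a negative ratio, none past 1.5-fold, and the median was 0.0143, or -0.0001 with structural RNA left out of the library total. Apex1, the endonuclease that cuts at the abasic site after the glycosylase, had 166 reads in Ogg1 KO and 131 in Mutyh KO, with 147 in the DKO and 148 in WT (1.28, 1.01 to 1.62). Nudt1, which removes oxidised guanine nucleotides from the pool, had 28 reads in Ogg1 KO and 24 in Mutyh KO, and Polb, the repair polymerase, had 553 in each. Xrcc1, a scaffold of single-strand break repair, had 451 reads in Ogg1 KO and 536 in Mutyh KO (0.847, 0.746 to 0.962). Other repair pathways had 31 members compared, 10 positive and 21 negative and none past 1.5-fold, with Lig4 of end joining at 331 reads in Ogg1 KO and 241 in Mutyh KO. Of the p53 targets, Btg2 (271 reads in Ogg1 KO and 419 in Mutyh KO) and Gadd45a (55 reads in Ogg1 KO and 32 in Mutyh KO) lay furthest apart, in opposite directions.

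Antioxidant genes were mixed. Of 32 compared, 17 had a positive and 15 a negative ratio, with a median of 0.0099, or -0.0047 with structural RNA left out of the total, and 1 was past 1.5-fold. That gene, Gpx3, a secreted glutathione peroxidase, had 121 reads in Ogg1 KO and 247 in Mutyh KO, with 143 in the DKO and 151 in WT (0.493, 0.394 to 0.616). Sod3, the extracellular superoxide dismutase, had 335 reads in Ogg1 KO and 490 in Mutyh KO, and Prdx3, a mitochondrial peroxiredoxin, had 781 reads in Ogg1 KO and 577 in Mutyh KO. In the respiratory chain 29 of 45 genes had a positive ratio with a median of 0.03, and Ndufs5 alone passed 1.5-fold. Ndufa4, a subunit of cytochrome c oxidase, had 1883 reads in Ogg1 KO and 1359 in Mutyh KO (fold 1.40).

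Neuronal genes differed in a few members. Grin2b, a subunit of NMDA receptors, had 1159 reads in Ogg1 KO and 2335 in Mutyh KO, with 3232 in the DKO and 2309 in WT, so the low value was that of Ogg1 KO (0.500, 0.466 to 0.537). Its ratio was -0.93 with the pseudocount, short of the 2-fold limit. Its partner subunit gene Grin2a had 577 reads in Ogg1 KO and 667 in Mutyh KO, with 1018 in the DKO and 316 in WT. No other gene among 21 glutamate receptor genes was past 1.5-fold. Pvalb, the parvalbumin of fast-spiking interneurons, had 438 reads in Ogg1 KO and 268 in Mutyh KO, with 298 in the DKO and 284 in WT (1.65, 1.41 to 1.92). Cck, a peptide gene also in the interneuron list, had 4457 reads in Ogg1 KO and 2971 in Mutyh KO, and bulk RNA does not show which cells held them. Over 18 interneuron markers 10 ratios were positive, with a median of 0.05. Dentate granule cell markers were negative in 13 of 17, with a median of -0.18, C1ql2 at 1333 reads in Ogg1 KO and 1938 in Mutyh KO being the furthest from 0. CA1 markers had a median of 0.04, and CA2 and CA3 markers one of -0.05. Immediate early genes, switched on by neuronal activity, were negative in 18 of 26 with a median of -0.09, among them Npas4 (295 reads in Ogg1 KO and 473 in Mutyh KO) and Egr2 (50 reads in Ogg1 KO and 93 in Mutyh KO). Egr2 passed the level only through its reads in Mutyh KO, so its negative ratio is in part set by the level required. Of glial lists, astrocyte markers were negative in 14 of 18 (median -0.07), with S100b at 1293 reads in Ogg1 KO and 1956 in Mutyh KO, and microglial markers in 8 of 15 (median -0.03).

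Inflammation and hormone-responsive genes held a few low members in Ogg1 KO. C3, of complement, had 64 reads in Ogg1 KO and 224 in Mutyh KO, with 160 in the DKO and 197 in WT (0.288, 0.214 to 0.381). Lcn2, an iron-binding acute phase protein, had 3 reads in Ogg1 KO and 21 in Mutyh KO, with 7 in the DKO and 57 in WT. Over the 10 acute phase and inflammation genes that passed, 8 ratios were negative, with a median of -0.10. Glucocorticoid-responsive genes were negative in 12 of 16 (median -0.16), with Plin4, a lipid droplet protein, at 96 reads in Ogg1 KO and 200 in Mutyh KO (0.483, 0.375 to 0.620).

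In the remaining lists single members stood out. Among neuropeptide precursors 13 of 19 ratios were positive with a median of 0.09, and Pmch, Hcrt and Cck were the members past 1.5-fold. GABA receptor genes were positive in 9 of 13 (median 0.03), with Gabrb1, a receptor subunit, at 534 reads in Ogg1 KO and 781 in Mutyh KO. Oligodendrocyte and myelin genes were negative in 13 of 21 (median -0.05), endothelial and mural genes in 13 of 19 (median -0.10) and circadian clock genes in 12 of 19 (median -0.06). Cytosolic heat shock genes had a median of 0.01 and chaperones of the endoplasmic reticulum one of -0.05. Of neighbouring regions, thalamus and habenula markers were negative in 11 of 15 (median -0.14), with Zic1, a zinc finger factor, at 710 reads in Ogg1 KO and 1195 in Mutyh KO, while striatum and neocortex markers had medians of 0.05 and 0.07. The medians of the p53 (0.04), MHC (0.01), neurogenesis (0.0048), interferon (-0.04) and monoamine (-0.06) lists changed sign under at least 1 alternative setting, so no direction is given for them.

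Further genes were higher in Ogg1 KO. Pisd-ps2, a pseudogene of phosphatidylserine decarboxylase, had 188 reads in Ogg1 KO and 86 in Mutyh KO, with 119 in the DKO and 121 in WT (2.20, 1.70 to 2.88), and reads of its parent gene could be shared with it. Dkkl1 had 26 reads in Ogg1 KO and 11 in Mutyh KO (2.38, 1.14 to 5.34). Gm1821, a clone name chosen after its values were seen, had 27 reads in Ogg1 KO and 6 in Mutyh KO, with 9 in the DKO and 12 in WT (4.53, 1.83 to 13.4). Dkkl1 and Gm1821 passed the level only through their reads in Ogg1 KO, so their higher values there are in part set by the level required. Atox1, a copper chaperone, had 365 reads in Ogg1 KO and 212 in Mutyh KO (1.73, 1.46 to 2.06), with 207 in the DKO and 220 in WT. Acat2, an acetyl-CoA acetyltransferase, had 366 reads in Ogg1 KO and 215 in Mutyh KO, and Smdt1, a subunit of the mitochondrial calcium uniporter, had 853 reads in Ogg1 KO and 540 in Mutyh KO. In each of these 3 genes the DKO and WT lay with Mutyh KO. Anpep, aminopeptidase N, had 276 reads in Ogg1 KO and 141 in Mutyh KO.

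Ribosomal protein genes were higher in Ogg1 KO in 34 of 42, with a median of 0.14, and 1 of them, Rps28, was past 1.5-fold with 1148 reads in Ogg1 KO and 743 in Mutyh KO (1.56, 1.42 to 1.71). Rps14 had 1985 reads in Ogg1 KO and 1400 in Mutyh KO and Rpl35 had 1795 reads in Ogg1 KO and 1314 in Mutyh KO. Structural RNAs ran the other way: the nuclear RNA Rn7sk had 39 reads in Ogg1 KO and 299 in Mutyh KO, with 345 in the DKO and 182 in WT, and the 28S ribosomal RNA gene Rn28s1 had 49314 reads in Ogg1 KO and 166015 in Mutyh KO. Short genes carried most of the differences past 1.5-fold. With genes split into 5 equal groups by length, the shortest group, at most 1626 bases, held 32 of the 38 higher and 85 of the 127 lower genes. By level, the median log2 ratio was -0.07 in the lowest of 5 groups and 0.03 in the highest.

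The covered share was at least 10 points higher in Ogg1 KO in 161 (1.32%) of the 12233 genes and lower in 322 (2.63%). With clone names left out, Msantd1 had the largest positive difference, with 64.2% covered in Ogg1 KO and 37.8% in Mutyh KO on 70 reads in Ogg1 KO and 51 in Mutyh KO. Fkbp7, a peptidyl-prolyl isomerase of the endoplasmic reticulum, had the largest negative one, with 52.2% covered in Ogg1 KO and 80.4% in Mutyh KO on 31 reads in Ogg1 KO and 39 in Mutyh KO. Plvap, a protein of endothelial diaphragms, followed with 63.3% in Ogg1 KO and 85.6% in Mutyh KO, with 70.3% in the DKO and 50.4% in WT, on 219 reads in Ogg1 KO and 243 in Mutyh KO. Its lowest covered share was that of WT.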

How the data were processed

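Total RNA of hippocampus was sequenced, per the labels' protocols, on an Illumina HiSeq. Per the file headers, the authors deposited for each gene a count of unique reads, the length in bases, the coverage as a percent of that length and RPKM scaled to the library total. The mouse build was mm9, per the submitters' processing notes. Aligner, counter, annotation and strandedness: not given in the sources used here. Genes without reads were taken as 0.

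Everything else was computed with Python 3.11.15, with edgeR 4.0.16 and DESeq2 1.42.0 used only for alternative scalings. Genes were joined on gene ID and placed on chromosomes by a RefSeq table (GRCm38.p6), 18398 by ID and 21 by symbol, with 73 not placed. The log2 ratio used a pseudocount of 1 RPKM, and intervals (95%) and floors (3 reads) cover counting error only. No p-value was computed. Named genes were the 15 highest and 15 lowest ratios with an interval excluding 1, clone names left out, up to 6 members per list, and 6 genes per direction for coverage. The calculation was tested on simulated data. The members and the 40 lists were chosen with earlier results of these data known. Each list is a description, and the single pituitary gene compared, Gh, had 7 reads in Ogg1 KO and 1 in Mutyh KO.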

Additional observations from a re-analysis of the deposited data

Results flagged for a closer look

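Xist lies on the X chromosome and was outside the compared genes. It had 10307 reads in Mutyh KO, against 23 in Ogg1 KO, 29 in the DKO and 14 in WT.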

How the results depend on the processing

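The count of genes at least 2-fold higher in Ogg1 KO, 7, became 15 with a pseudocount of 0.1 RPKM, 2 with 5 RPKM, 21 with no filter on low values and 2 with a mean of at least 5 RPKM. It became 38 at 1.5-fold and 13 over all chromosomes. Without members of the choroid plexus, red blood cell, liver, muscle, intestine and pituitary lists it became 4. The count of lower genes, 40, became 76 with a pseudocount of 0.1 RPKM, 11 with 5 RPKM, 10 with a mean of at least 5 RPKM, 127 at 1.5-fold and 25 without the members of those same lists. Both counts stayed within 1.5 times under TMM scaling (8 and 40), median-of-ratios scaling (8 and 40), a total without structural RNA (7 and 42), an interval excluding 1 (5 and 32) and, both chosen after seeing the data, centring on genes of like length (7 and 40) and leaving out small noncoding RNAs (6 and 28). The median of the hypothalamus list, -0.33, was 0.0878 with a mean of at least 5 RPKM; the cause was not tested. Of 279 list medians under an alternative 257 moved by less than 0.1 on the log2 scale. With a mean of at least 5 RPKM the liver median of -1.25 became -0.0264, that of muscle -0.0878 (from -0.88) and that of intestine 0.0699 (from 1.54). These medians are over fewer genes and are no check on the same genes. Actc1, Myl2, Mb, Myh6, Apoa4, Fabp2 and Apoa1 average under 5 RPKM. So do the 7 liver genes at 0 reads in Ogg1 KO, apart from Alb. Of 204 log2 ratios of named genes under an alternative 159 stayed inside the gene's own counting interval. For covered share, 0 genes lay below Ogg1 with read totals within 1.5-fold, 3 at any read ratio and 0 with the ratio of RPKM + 1 within 1.5-fold, both chosen after seeing the data. The largest shift of the median of all genes was 0.0155. No paired analysis was possible because each genotype has 1 library and no replicate number, and no library could be left out.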
